A study of Homo sapiens with 32 samples.

Results

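AU-rich element binding proteins decide how long many short-lived mRNAs last, and the decay of their own mRNAs was compared here between 2 breast cancer cell lines. The set holds 10 genes: ZFP36, ZFP36L1, ZFP36L2, HNRNPD and KHSRP, which promote decay; ELAVL1, TIA1 and TIAL1, which stabilise mRNAs or hold back their translation; and RC3H1 and ZC3H12A, which act on stem-loops. The members were found by giving the RefSeq transcripts of both decay-rate tables their current gene symbols and keeping these genes. Of the 10 genes, 8 had a rate in both lines, among 10623 genes that did; the rates of ZFP36 and ZC3H12A were not analysed here. The 8 genes were represented by 13 transcripts: 5 genes by 1 transcript each, and HNRNPD, TIA1 and TIAL1 by more than 1.

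MDA-MB-231, the parental line, is an established human breast cancer line, and MDA-LM2 is its derivative selected for metastasis to the lung. Both were grown in the same medium without any further treatment than the labelling. The cells were given 4-thiouridine, a uridine analogue that marks newly made RNA, for 2 h; the medium was then exchanged for one with excess uridine, and labelled RNA was sequenced at 0, 2, 4 and 7 h. There were 4 replicate series of the 4 time points per line, and each transcript has 1 rate per series. The title of each series carries a pair of numbers; series 1 to 4 stand here for the pairs 1 and 1, 1 and 2, 2 and 1, and 2 and 2. A higher rate means faster loss of labelled RNA. The unit is the authors' own and was not turned into half-lives. A rate is an average over all cells of a culture and says nothing about the level of an mRNA.

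AU-rich elements are stretches of repeated AUUUA in the 3 prime UTRs of mRNAs for cytokines, early growth-response factors and cell-cycle regulators. ZFP36 family proteins bind them through paired zinc fingers and recruit the CCR4-NOT complex, which removes the poly(A) tail, after which decapping enzymes, the exonuclease XRN1 and the exosome degrade the body. ELAVL1 competes for such sites and protects the mRNA, while TIA1 and TIAL1 gather translationally stalled mRNAs in stress granules. RC3H1 (Roquin) and the endonuclease ZC3H12A (Regnase) recognise hairpins in many of the same mRNAs. Several of these proteins are known to bind their own transcripts or each other's.

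The 3 prime UTRs of the binding proteins were therefore searched for the pentamer ATTTA and for the nonamer TTATTTATT, which contains the pentamer and matches the ZFP36 family's preferred site. Only the transcript strand was read, in the GENCODE model of each gene with the longest 3 prime UTR, which need not be the transcript with a rate. ZFP36, ZFP36L1, ZFP36L2 and ELAVL1 each held a single nonamer, and the other 6 genes held none. Among 9799 genes with a rate and a 3 prime UTR, 9.96% held a nonamer, and 76.6% held a pentamer; these UTRs differ in length (median 1467 bases). The nonamers, in capitals within 10 bases either side, are shown because they are the feature shared by the ZFP36 family genes and ELAVL1.
ZFP36: tatgacgactTTATTTATTctaatatgat
ZFP36L1: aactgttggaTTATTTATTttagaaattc
ZFP36L2: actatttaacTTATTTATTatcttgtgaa
ELAVL1: atttatgtatTTATTTATTgaagtgtgaa

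All 4 nonamers lie in 3 prime UTRs, on GRCh38. They are at chr19:39409206-39409214 (plus strand) in ZFP36, chr14:68788087-68788095 (minus strand) in ZFP36L1, chr2:43223458-43223466 (minus strand) in ZFP36L2 and chr19:7961838-7961846 (minus strand) in ELAVL1. Pentamers were most numerous in RC3H1, with 21 in 7507 bases. ELAVL1 and TIA1 held 13 each, ZFP36L1 8, TIAL1 7, ZFP36 and ZFP36L2 5 each and HNRNPD 2. KHSRP and ZC3H12A held none, in UTRs of 764 and 768 bases. Per kilobase of UTR the order differed: ZFP36 held the most, at 7.01 in 713 bases, then TIA1 at 3.97, and RC3H1 held 2.80. A match is a description of the letters and not a measured binding site. Over all genes, median rates with no nonamer (8823 genes) were 0.158 ± 0.0106 in MDA-LM2 and 0.185 ± 0.0159 in the parental line (SD, n = 4 series). With 1 nonamer (744 genes) they were 0.179 ± 0.0112 and 0.200 ± 0.0152, and with 2 or more (232 genes) 0.173 ± 0.0085 and 0.189 ± 0.0215. These medians lay close together, with overlapping ranges of the series in both lines. All groups were read in the same series, so the overlap does not judge their differences, which were not compared within series.

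Both tables hold 12966 transcripts, and the series medians over all genes averaged 0.164 ± 0.0107 for MDA-LM2 and 0.189 ± 0.0153 in MDA-MB-231 (SD of the series medians, n = 4). Read depth is unknown. Rates fell into separate bands: transcripts within 1 of 0 made up 94.6% to 96.8% per series in MDA-LM2 and 79.9% to 82.6% in MDA-MB-231. Between 0 and 3 transcripts per series had a rate above 4 and up to 7, whereas 146 to 243 in MDA-LM2 and 1182 to 1300 in the parental line had one above 7. Of the members' transcript rates, 3 of 52 in MDA-LM2 and 13 of 52 in the parental line lay beyond 1 either side of 0. Series of a line with the same second number in their titles (1 and 3, 2 and 4) resembled each other more than other series, with Spearman correlations over genes of 0.794 to 0.839 against 0.610 to 0.632 in MDA-LM2 and 0.634 to 0.780 against 0.255 to 0.360 in MDA-MB-231. The series are thus not fully independent; no source says whether they came from separate cultures, and p-values therefore reflect the spread among these series alone, which may be technical. All 4 mesenchymal markers looked for (VIM, CD44, MSN, AXL) had a rate, as did 1 of 4 luminal markers (KRT8) and 0 of 4 markers of immune, endothelial and fibroblast cells; a rate shows that RNA was quantified, not its level.

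A gene was called when limma's moderated test of the 4 against 4 rates, Benjamini-Hochberg adjusted over all 10623 genes, gave an adjusted p below 0.05. Among the 8 binding proteins, 1 was called slower in MDA-LM2 (TIAL1) and 1 faster (ZFP36L1). Over all genes, 6.75% were called slower and 1.98% faster, and a single call in each direction among 8 genes does not set the group apart. Calls over all genes depended on the series: 717 slower and 210 faster became 401 to 473 and 83 to 96 without any 1 MDA-LM2 series, and 133 faster without MDA-MB-231 series 1. Of all calls, 77.3% were slower in MDA-LM2. The share was 56.2% once each series was centred on its median and 48.2% with rates replaced by percentiles within a series. Percentiles also depend on the upper bands, which held more transcripts in MDA-MB-231. An equal rate within 1 of 0 can therefore rank lower there, and a percentile call need not mean a difference in rate. The mean rate was lower in MDA-LM2 for 4 members and higher for 4, against 67.1% lower over all genes, and the median difference was -0.02 over the 8 members and -0.05 over all genes. Of the members, 4 (ZFP36L1, KHSRP, ELAVL1 and RC3H1) had rates within 1 of 0 in all 8 series, and the other 4 had a rate beyond that range. How precisely single rates are determined was not measured.

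**Figure D1:**
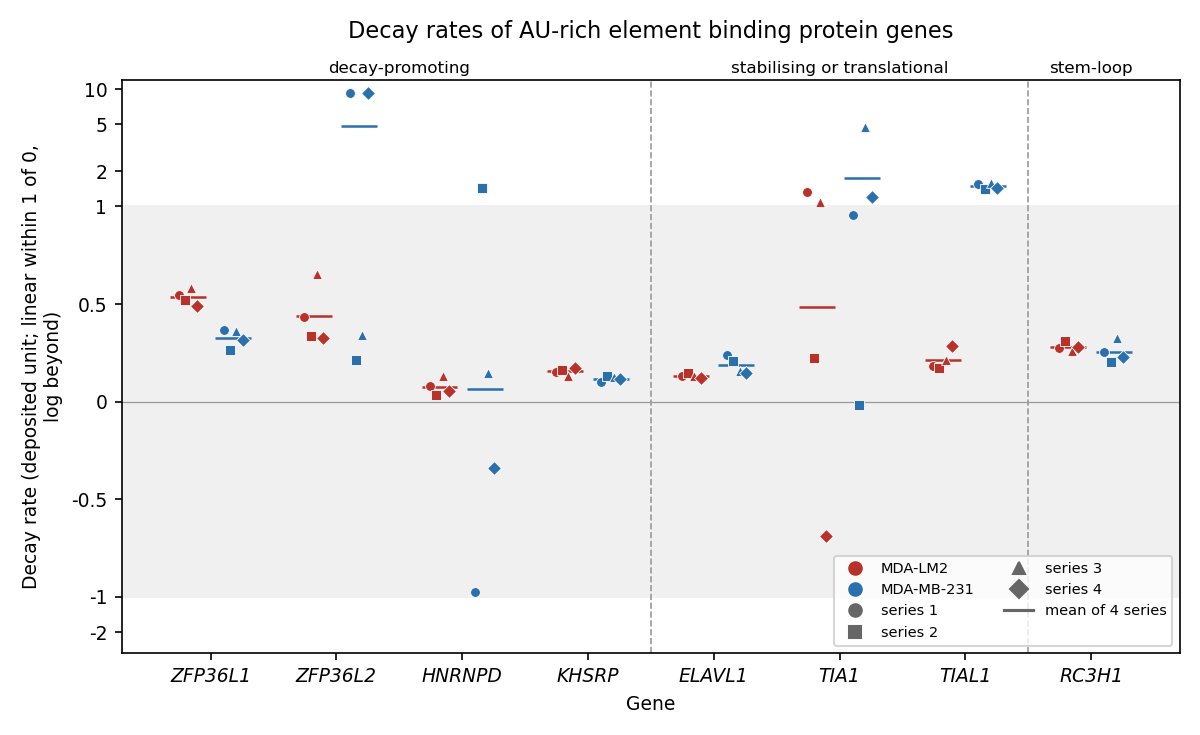
Decay rate (deposited unit, axis linear within 1 of 0 and logarithmic beyond) of the 8 measured genes in each of the 4 series of MDA-LM2 (red) and MDA-MB-231 (blue); bars are means and the grey band marks rates within 1 of 0. ZFP36L1 lies higher in all 4 MDA-LM2 series, and TIAL1 lies above 1 in all 4 MDA-MB-231 series.

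ZFP36L1, a zinc-finger protein that recruits the deadenylase to AU-rich mRNAs, decayed faster in MDA-LM2 by the only transcript with rates in both lines. Its rates were 0.544, 0.522, 0.582 and 0.491 in series 1 to 4 of MDA-LM2 and 0.369, 0.267, 0.363 and 0.314 in those of MDA-MB-231. The lowest MDA-LM2 series stood above the highest MDA-MB-231 series, so the lines did not overlap. The means were 0.535 ± 0.0384 and 0.328 ± 0.0479 (SD, n = 4 series), a difference of 0.21 (SE 0.0374, limma adjusted p = 0.0182). Among all genes of a series, the mRNA stood at the 93.2 to 95.8 percentile of rates in MDA-LM2 and at the 66.8 to 75.5 percentile in MDA-MB-231, and it was thus among the shortest-lived mRNAs measured in MDA-LM2. The call was lost when series sharing a second number were modelled as correlated (limma adjusted p = 0.065), with robust shrinkage (0.104), and without MDA-LM2 series 1 (0.0622), 2 (0.052) or 3 (0.0588), while the difference stayed between 0.19 and 0.22 when any 1 series was left out. These rates belong to NM_001244701. A further ZFP36L1 transcript, NM_001244698, had rates only in MDA-MB-231, of 9.38, 9.38, 9.31 and 0.43, and entered no comparison. The GENCODE model paired with NM_001244701 has 633 bases and no annotated stop codon, so it is incomplete. Its 189 residues and missing 3 prime UTR therefore need not describe the whole transcript. The model of NM_001244698 has 338 residues. How shared reads were divided between these transcripts is not stated, so the direction holds for NM_001244701 alone.

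ZFP36L2, a further member of the family with the same function, gave no stable difference. Its rates were 0.433, 0.337, 0.653 and 0.324 in MDA-LM2 and 9.30, 0.214, 0.341 and 9.37 in the parental line. Series 1 and 4 of MDA-MB-231 thus fell in the uppermost band, while series 2 lay below the MDA-LM2 range and series 3 within it, and the lines overlapped. The mean difference of -4.37 (SE 2.49) was not called (limma adjusted p = 0.285), and by percentile it turned to 9.67 points higher in MDA-LM2. Such a mixture within a line was not rare: 2119 genes (19.9%) had 1 to 3 MDA-MB-231 series above 1 with all MDA-LM2 series within 1 of 0. In MDA-LM2 the mRNA stood at the 83.4 to 96.2 percentile, near ZFP36L1.

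KHSRP, a KH-domain protein that brings the exosome and other nucleases to AU-rich mRNAs, had rates near the middle of all genes in MDA-LM2 (41.8 to 52.5 percentile) and below it in MDA-MB-231 (26.1 to 38.4). Its rates were 0.150, 0.164, 0.131 and 0.174 in MDA-LM2 and 0.0998, 0.132, 0.128 and 0.114 in the parental line. The lines overlapped only by the lowest MDA-LM2 series. The difference was 0.04 (SE 0.0162) and was not called (limma adjusted p = 0.212, and 0.058 to 0.404 over the alternatives), so KHSRP, at 0.155 ± 0.0186 and 0.118 ± 0.0144 (SD, n = 4 series), was not shown to differ.

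HNRNPD (AUF1), whose isoforms bind AU-rich elements and mostly promote decay, was the slowest member in both lines by the median of its 4 series. Its rates over transcripts were 0.0814, 0.0355, 0.133 and 0.0558 in MDA-LM2, at 0.0763 ± 0.0419 (SD, n = 4 series). In MDA-MB-231 they were -0.975, 1.43, 0.145 and -0.338, a spread too wide to compare (difference 0.01, SE 0.471, limma adjusted p = 0.992). The sign of the difference turned without MDA-LM2 series 3, without MDA-MB-231 series 1 or 4, and by percentile. Only its single transcripts show where that spread arose.

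Transcripts of HNRNPD differ by cassette exons, among them exon 2, which adds 19 residues before the first RNA-binding domain. In the GENCODE model of NM_031370 this exon is 57 bases long, at chr4:82371528-82371584 (GRCh38, minus strand, coding). The whole exon is printed in capitals because the full stretch is present or absent.
HNRNPD exon 2: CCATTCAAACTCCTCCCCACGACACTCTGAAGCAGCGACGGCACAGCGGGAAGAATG

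The models of NM_031370 (355 residues) and NM_002138 (306 residues) hold exon 2, and that of NM_031369 (336 residues) does not. NM_001003810 is paired by GENCODE with the model of NM_002138, so its exons are not described here. NM_002138 had rates of 0.110, 0.158, 0.0583 and 0.153 in MDA-LM2 and 0.213, 0.116, 0.113 and 0.140 in the parental line. NM_031370 had 0.135, 0.197, 0.0617 and 0.121 in MDA-LM2 and 0.202, 0.394, 0.367 and 0.0431 in the parental line. All rates of these exon 2 transcripts lay within 1 of 0.

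NM_031369 had rates of 0.053, -0.0869, 0.203 and -0.0369 in MDA-LM2 and -2.15, 2.69, 0.177 and -0.836 in the parental line. NM_001003810 had 0.0248, -0.159, 0.209 and -0.00897 in MDA-LM2 and -2.29, 2.47, -0.0575 and -0.719 in the parental line. Both were lowest in series 1 and highest in series 2 of MDA-MB-231. The wide spread of the gene thus came from these transcripts. In a fit of all 12966 transcripts, in which 6.04% were called slower and 1.9% faster in MDA-LM2, none of the 4 was called, with limma adjusted p from 0.352 for NM_031370 to 0.972 for NM_031369. The transcripts share most of their exons, and single-transcript rates are uncertain, since the sources used here do not say how shared reads were divided among them.

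**Figure D2:**
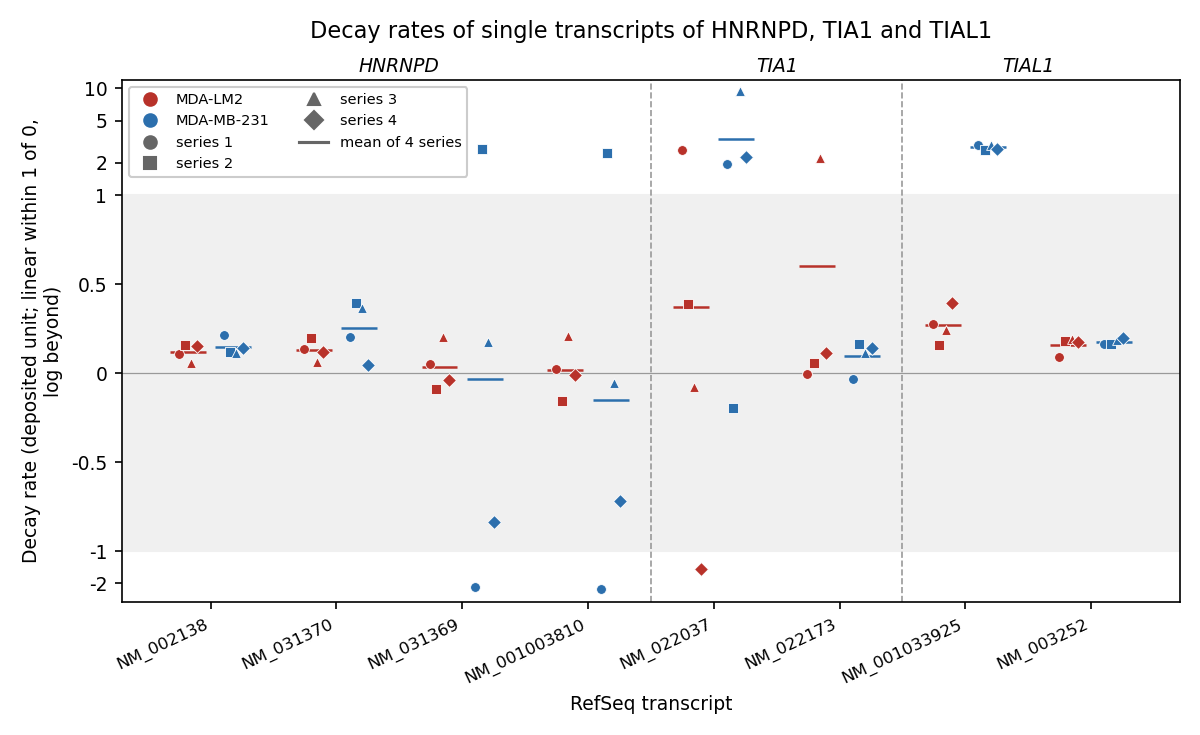
Decay rate (deposited unit, axis linear within 1 of 0 and logarithmic beyond) of single RefSeq transcripts of HNRNPD, TIA1 and TIAL1 in each series of MDA-LM2 (red) and MDA-MB-231 (blue), with means as bars. NM_001033925 of TIAL1 lies between 2.66 and 2.97 in MDA-MB-231, while NM_003252 lies at 0.161 to 0.195 there.

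ELAVL1 (HuR), which protects AU-rich mRNAs, was lower in MDA-LM2 without passing the test. Its rates were 0.131, 0.146, 0.130 and 0.122 in MDA-LM2 and 0.240, 0.210, 0.158 and 0.146 in the parental line. The lines met at 0.146, where the highest MDA-LM2 series stood just below the lowest MDA-MB-231 series. The difference was -0.06 (SE 0.0244, limma adjusted p = 0.199) between means of 0.132 ± 0.00998 and 0.188 ± 0.0440 (SD, n = 4 series). Over all genes, 17.7% had all 4 MDA-LM2 rates below all 4 MDA-MB-231 rates, and 5.54% had them all above. Of the 8 members, ELAVL1 and TIAL1 were in the lower group and ZFP36L1 in the higher. By the smallest Euclidean distance over the 8 rates, the genes most like ELAVL1 were GTF3C3 (distance 0.0601), which encodes a subunit of a general factor of RNA polymerase III, SMARCE1 (0.0655), a chromatin-remodelling subunit, and TGFBR1 (0.0662), a receptor for TGF-beta.

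TIAL1 (TIAR), a translational repressor of stress granules, was the member with the smallest adjusted p. Its rates were 0.183, 0.170, 0.215 and 0.285 in MDA-LM2 and 1.57, 1.41, 1.57 and 1.44 in the parental line, with no overlap. The difference of -1.28 (SE 0.0769, limma adjusted p = 5.16e-05) held under each of the 15 alternative fits run on genes, with adjusted p from 3.5e-06 to 0.048. It came from 1 of its 2 transcripts. NM_001033925 had rates of 0.278, 0.158, 0.241 and 0.395 in MDA-LM2 and 2.97, 2.66, 2.96 and 2.69 in the parental line, a difference of -2.55 (SE 0.216, limma adjusted p = 0.000369).

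NM_003252 did not share that pattern. Its rates were 0.0879, 0.182, 0.190 and 0.174 in MDA-LM2 and 0.164, 0.161, 0.186 and 0.195 in the parental line, a difference of -0.02 (SE 0.0269, limma adjusted p = 0.664). The median over both transcripts therefore lies between a rate near 0.18 and a rate near 2.82 in MDA-MB-231 and describes neither. The authors' deposited table gave a score of 1.00 for NM_001033925 and 0.481 for NM_003252, where a positive score marks slower decay in MDA-LM2.

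The coding difference between the TIAL1 transcripts is at the 5 prime end of exon 3. The model of NM_001033925 (392 residues) has 51 bases, or 17 residues, more than that of NM_003252 (375 residues). The exon is at chr10:119582459-119582608 (GRCh38, minus strand, coding); it is printed, with the bases absent from NM_003252 in capitals, as the coding stretch that tells apart the transcript with rates above 1.
TIAL1 exon 3: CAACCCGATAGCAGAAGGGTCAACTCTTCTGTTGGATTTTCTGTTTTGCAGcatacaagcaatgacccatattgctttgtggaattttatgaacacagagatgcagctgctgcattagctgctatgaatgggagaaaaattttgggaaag

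The models also differ in their 3 prime UTRs, of 3863 bases for NM_001033925 and 228 for NM_003252. How reads from the stretches they share were divided is not stated, so the single-transcript rates are uncertain. The pattern of NM_001033925 was met elsewhere: 357 transcripts (2.75%) had all 4 MDA-MB-231 rates above 1 and all 4 MDA-LM2 rates within 1 of 0. Of these, 86 belonged to a gene with another transcript within 1 of 0 in all 8 series, in 85 of the 1691 genes with more than 1 transcript (5.03%). The genes nearest to TIAL1 in the 8 rates were RNF216 (distance 0.187), a ubiquitin ligase, GAPDH (0.198), a glycolytic enzyme, and NOP56 (0.202), a nucleolar protein. Each was split in the same way. GAPDH's NM_001256799 ran from 2.83 to 3.06 in MDA-MB-231, and its NM_002046 from 0.0224 to 0.0452. The part of the upper bands in the TIAL1 difference was not tested.

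TIA1, the close relative of TIAL1 with the same repressor function, had the widest spread of the stabilising or translational class. Its rates were 1.33, 0.223, 1.08 and -0.687 in MDA-LM2 and 0.957, -0.0186, 4.80 and 1.21 in the parental line, with the lines overlapping. The difference of -1.25 (SE 1.07) was not called (limma adjusted p = 0.461). NM_022037 ran from -1.49 to 2.66 in MDA-LM2 and from -0.198 to 9.48 in the parental line. NM_022173 stayed between -0.0319 and 0.161 in the parental line and, in MDA-LM2, read -0.00499, 0.0551 and 0.115 in series 1, 2 and 4 and 2.24 in series 3. The differences of the transcripts had opposite signs, -3.01 and 0.51 (limma adjusted p = 0.387 and 0.513), and no direction can be given for the gene. Among its nearest genes, OS9 (distance 1.83) and NFX1 (1.97) were far from it and shared with it mainly a gene median near 5 in MDA-MB-231 series 3. No transcript of these genes had that rate. The transcripts there read 9.48 and 0.113 for TIA1, 9.65 and 0.0346 for OS9, and 9.55 and -0.106 for NFX1.

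RC3H1, which binds stem-loops and recruits CCR4-NOT, decayed somewhat faster than most genes in both lines. Its rates were 0.273, 0.310, 0.261 and 0.281 in MDA-LM2 and 0.256, 0.201, 0.326 and 0.228 in the parental line. The MDA-MB-231 series enclosed the whole range of MDA-LM2. The difference was 0.03 (SE 0.0312, limma adjusted p = 0.54), at the 76.4 to 80.0 percentile in MDA-LM2 and the 55.9 to 69.3 percentile in MDA-MB-231.

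**Figure D3:**
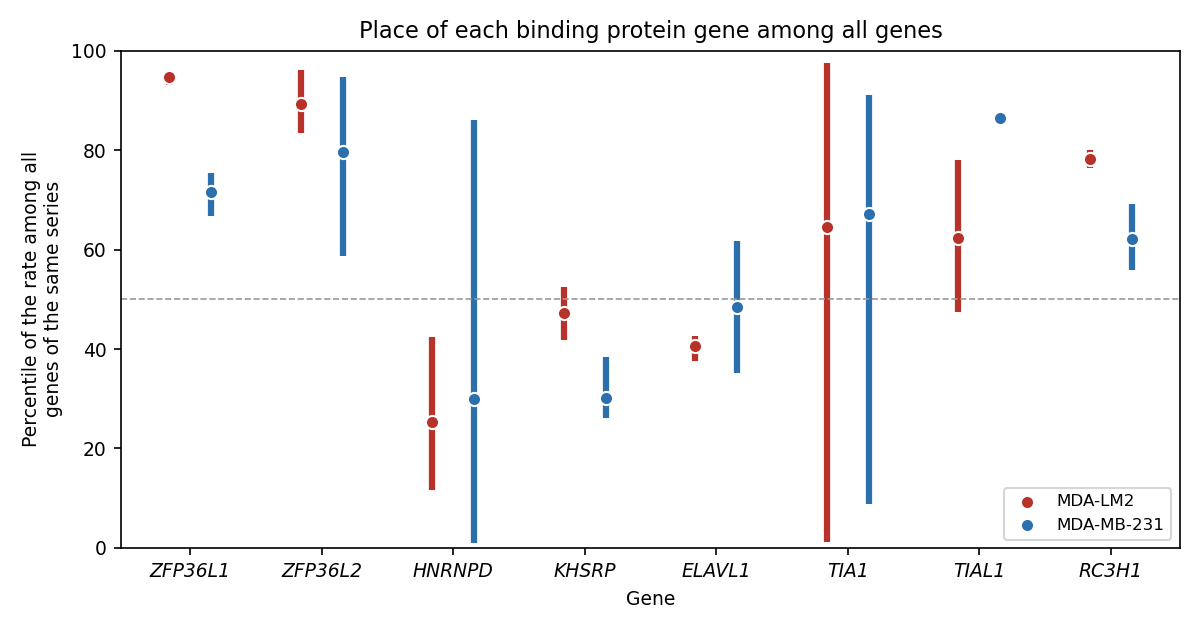
Percentile of each gene's decay rate among all 10623 genes of the same series (vertical axis; higher is faster decay), with the mean of 4 series as a point and the lowest to highest series as a bar. ZFP36L1 had a mean of 94.8 in MDA-LM2 against 71.5 in the parental line. TIA1 spans most of the scale in both lines, and HNRNPD does so in the parental line.

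In MDA-LM2, mRNAs of the decay-promoting proteins had a higher median rate than those of the stabilising or translational proteins. The median of the 4 decay-promoting genes was 0.291, 0.250, 0.358 and 0.249 in series 1 to 4, and that of ELAVL1, TIA1 and TIAL1 was 0.183, 0.170, 0.215 and 0.122. All 4 series had the decay-promoting class higher, by 0.114 ± 0.0267 (SD, n = 4 series), and the median over all genes was 0.164. ZFP36L1 and ZFP36L2 stood above the decay-promoting median and KHSRP and HNRNPD below it, so the class was not uniform. KHSRP overlapped TIAL1 and ELAVL1. The other class was not uniform either. By the median of its 4 series, TIA1 was the fastest member in MDA-LM2 (0.653), with rates from -0.687 to 1.33. HNRNPD was the slowest (0.0686). Both thus went against the order of the class medians, which holds for the medians and not for each member. Members were chosen with earlier results known, so no p is given.

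In MDA-MB-231 the order was the opposite in 3 of 4 series. The decay-promoting median was 0.234, 0.240, 0.243 and 0.214, below all 4 MDA-LM2 values, and the stabilising or translational median was 0.957, 0.210, 1.57 and 1.21. The difference was -0.755 ± 0.58 (SD, n = 4 series), from -1.33 to 0.0308. It rested on TIA1 and TIAL1, whose rates there reached beyond 1. With only the members within 1 of 0 in all 8 series (ZFP36L1 and KHSRP against ELAVL1), the decay-promoting median was higher in all 4 series of MDA-LM2, by 0.213 ± 0.0125 (SD, n = 4 series). In MDA-MB-231 the same difference was -0.00518, -0.0105, 0.0875 and 0.0681 in series 1 to 4 (0.035 ± 0.0501), with either sign in 2 series. With RC3H1 added to the decay-promoting class the differences kept their sign.

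By the median of the 4 series, the order in MDA-LM2 from fast to slow was TIA1, ZFP36L1, ZFP36L2, RC3H1, TIAL1, KHSRP, ELAVL1 and HNRNPD. Among neighbours in that order, the ranges of the series separated only ZFP36L2 from RC3H1. In MDA-MB-231 the order was ZFP36L2, TIAL1, TIA1, ZFP36L1, RC3H1, ELAVL1, KHSRP and HNRNPD, and only ELAVL1 and KHSRP did not overlap as neighbours. The ZFP36L2 median there, 4.82, lies between series at 0.341 and 9.30, and no series had such a rate. For TIAL1 and TIA1 each value there lies between 2 transcripts with different rates. ZFP36L1 preceded RC3H1, ELAVL1, KHSRP and HNRNPD in both lines.

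Around these proteins, 5 lists of genes were read in the same fit, 142 genes in all, of which 111 had a rate. Of these, 8 (7.21%) were called slower and 5 (4.5%) faster in MDA-LM2, beside 6.75% and 1.98% of all genes. With series sharing a second number modelled as correlated, 3 and 1 were called; leaving out any 1 MDA-LM2 series gave 3 to 5 and 2, and 2 were called faster without MDA-MB-231 series 1. Centring each series gave 6 slower and 9 faster, percentiles 7 and 14, and robust shrinkage 7 and 3. The median difference over the 111 genes was -0.06, next to -0.05 over all genes. The share called faster was above that over all genes, a difference that was not tested.

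Deadenylation factors are the CCR4-NOT and PAN2-PAN3 enzymes that ZFP36 proteins recruit and the BTG and TOB adaptors. Among 14 measured genes of 18, none was called by limma or by the authors' deposited score. At an unadjusted limma p below 0.05, 0 were slower and 2 faster. The share of all genes at that threshold was not counted, so these counts show no lean of the list. The median difference of the list was 0.01. By the mean over all 8 series, which ranks the fastest and slowest genes of each list, CNOT3, a scaffold subunit, was the fastest with all rates within 1 of 0, at 0.383 ± 0.0417 in MDA-LM2 and 0.313 ± 0.0610 in the parental line (SD, n = 4 series), where BTG1 was faster (0.374). By percentile CNOT3 was called faster in MDA-LM2 (20.3 points, limma adjusted p = 0.0294), though by rate it was not (0.283). CNOT6L, a catalytic deadenylase, was the slowest, at 0.101 ± 0.0547 and 0.0628 ± 0.0440.

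Factors of decapping, 5 prime decay and the exosome were measured for 27 of 28 genes, of which 3 were called slower and 1 faster. LSM4, of the ring that binds deadenylated ends before decapping, differed by -1.36 (SE 0.0661, limma adjusted p = 5.04e-05). As for TIAL1, this came from 1 of 2 transcripts: NM_001252129 ran from 2.51 to 2.75 in MDA-MB-231, whereas NM_012321 stayed between -0.0904 and 0.0732 over both lines. EXOSC8, an exosome subunit, was at 0.00856 ± 0.026 in MDA-LM2 and 0.110 ± 0.0227 in the parental line (SD, n = 4 series; limma adjusted p = 0.0204). EXOSC10, the nuclear exosome's exonuclease, went the other way, at 0.164 ± 0.00566 against 0.0771 ± 0.0273 (limma adjusted p = 0.026). LSM3, named after its values were seen, was the remaining slower call, at -0.08 (limma adjusted p = 0.0232).

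The calls of EXOSC8, EXOSC10 and LSM3 were lost with correlated series (limma adjusted p = 0.116, 0.109 and 0.133), and that of LSM4 held (0.000282). Left-out series changed them too: without MDA-LM2 series 1, 2 or 3 none of EXOSC8, EXOSC10 and LSM3 was called; without MDA-LM2 series 4, EXOSC10 and LSM3 were not; and without MDA-MB-231 series 1, EXOSC10 was not. DCP1A, a decapping activator, was the fastest of the list within 1 of 0 (0.330 ± 0.0495 and 0.273 ± 0.0324). It was called faster in MDA-LM2 by percentile (19 points, limma adjusted p = 0.0289) but not by rate (0.283). EXOSC5 was the slowest over both lines (0.00681 ± 0.0702 and -0.0654 ± 0.109), though LSM3 was slower in MDA-LM2 (-0.0147).

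Regulators of ZFP36 are the kinases, phosphatases and phosphopeptide-binding adaptors that set its activity. Among 17 measured genes of 18, 2 were called slower and none faster by limma. At an unadjusted limma p below 0.05, 5 were slower and 0 faster, and the share of all genes at that threshold was not counted. By the authors' deposited score, 4 were slower and 1 faster, beside 572 slower and 135 faster over all genes. That score is given per transcript, whereas limma read the median over transcripts, so the 2 sets of counts differ in unit. SFN, one of the adaptors, had rates of 0.171, 0.429, 0.0607 and 0.417 in MDA-LM2 and 9.51, 9.32, 9.57 and 9.55 in the parental line (limma adjusted p = 5.04e-05). AKT1, a kinase, differed by -4.13 (limma adjusted p = 0.0171), through NM_005163, at 8.67 to 9.59 in MDA-MB-231; NM_001014431 stayed between -0.0617 and 0.129 over both lines. Those 2 calls thus rest on the uppermost band of MDA-MB-231. By percentile neither was called (limma adjusted p = 0.173 and 0.261), and AKT1 was not called with correlated series (0.0571) or without any 1 of the 4 MDA-LM2 series. DUSP1, the phosphatase that switches off the kinase acting on ZFP36 and itself an AU-rich mRNA, was the fastest within 1 of 0, at 0.630 ± 0.161 in MDA-LM2 and 0.594 ± 0.167 in the parental line (SD, n = 4 series; limma adjusted p = 0.839). By percentile DUSP1 was called faster in MDA-LM2 (14.1 points, limma adjusted p = 0.0174), though by rate it was not (0.839). MAP3K7 was the slowest over both lines (0.0695 ± 0.137 and -0.110 ± 0.666), though in MDA-LM2 4 genes within 1 of 0, YWHAE (-0.0279) the slowest, were slower.

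Other binders and relatives, such as further hnRNP, FXR and Roquin proteins, were measured for 24 of 28 genes, with 1 slower and 1 faster call. FMR1, a translational repressor, had NM_002024 in the upper bands in all 4 MDA-MB-231 series, from 3.18 to 9.75. NM_001185076 was there in all but series 3 (0.163). The mean of the gene was 0.0952 ± 0.0443 in MDA-LM2 and 6.75 ± 2.06 in the parental line (SD, n = 4 series, limma adjusted p = 0.0205). NCL (nucleolin), which binds AU-rich elements of BCL2 mRNA, was faster in MDA-LM2. It was at 0.149 ± 0.0162 against 0.0646 ± 0.0234 (limma adjusted p = 0.0293).

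With correlated series neither FMR1 nor NCL was called (limma adjusted p = 0.0929 and 0.123). Leaving out a single MDA-LM2 series ended the call of FMR1 and NCL for each of the 4 series; NCL was also lost without MDA-MB-231 series 1, 3 or 4. N4BP1, a relative of ZC3H12A, was the fastest within 1 of 0 over both lines (0.234 ± 0.0501 and 0.424 ± 0.127, limma adjusted p = 0.119), though in MDA-LM2 5 genes, ZC3H12C (0.307) the fastest, were faster. YBX1, an mRNA-packaging protein, was the slowest (-0.0171 ± 0.0109 and 0.00751 ± 0.0197).

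mRNAs known to carry AU-rich elements or decay-promoting stem-loops, the targets of these proteins, were measured for 30 of 51 genes. Their median rate over the list was 0.377 ± 0.018 in MDA-LM2 and 0.374 ± 0.0389 in the parental line (SD, n = 4 series), above the medians over all genes of 0.164 and 0.189. Of the 30, 2 were called slower and 3 faster in MDA-LM2. The median difference was -1.02, but only 14 of the 30 had all rates within 1 of 0.

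FOSL1, an AP-1 subunit, had rates of 0.591, 0.532, 0.583 and 0.521 in MDA-LM2 and 0.308, 0.363, 0.272 and 0.283 in the parental line. The lines did not overlap, and the difference was 0.25 (SE 0.0349, limma adjusted p = 0.00624; 0.0315 with correlated series and 0.0637 with robust shrinkage). NFKBIZ, a nuclear NF-kB co-regulator with a Regnase stem-loop, was at 0.539 ± 0.0463 against 0.228 ± 0.0795 (SD, n = 4 series; limma adjusted p = 0.00956; 0.0547 with correlated series). Both were faster in MDA-LM2, as the compared ZFP36L1 transcript was. SOCS3, a cytokine-signalling inhibitor named after its values were seen, was the remaining faster call (0.26, limma adjusted p = 0.0483; 0.201 with correlated series). It was lost without any 1 of the 4 MDA-LM2 series and without MDA-MB-231 series 1, 2 or 3.

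NFKBIA, the inhibitor that holds NF-kB in the cytoplasm, had rates of 0.530, 0.376, 0.774 and 0.278 in MDA-LM2 and 9.71, 9.61, 9.76 and 9.73 in the parental line (limma adjusted p = 5.04e-05; 0.153 by percentile). MCL1, an anti-apoptotic BCL2 relative, was called slower, at 0.357 ± 0.0169 against 0.551 ± 0.05 (SD, n = 4 series; limma adjusted p = 0.0189). Its call was lost with correlated series (0.109) and without any 1 of the 4 MDA-LM2 series, and by percentile its sign turned. None of the 3 MCL1 transcripts was called in the fit of transcripts. Their differences were -0.026 for NM_001197320, 0.35 for NM_021960 and -2.49 for NM_182763 (limma adjusted p = 0.806, 0.796 and 0.46). With the mean over transcripts MCL1 was not called either (-0.72, limma adjusted p = 0.46). The call thus holds for the median over transcripts and for no single transcript. HIF1A, the hypoxia factor, was the slowest of the list within 1 of 0 by the mean over both lines (0.137 ± 0.0128 and 0.179 ± 0.119, limma adjusted p = 0.622), though E2F1 was slower in MDA-LM2 (0.102) and CCNB1 (0.1766) and CCND1 (0.177) in MDA-MB-231.

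**Figure D4:**
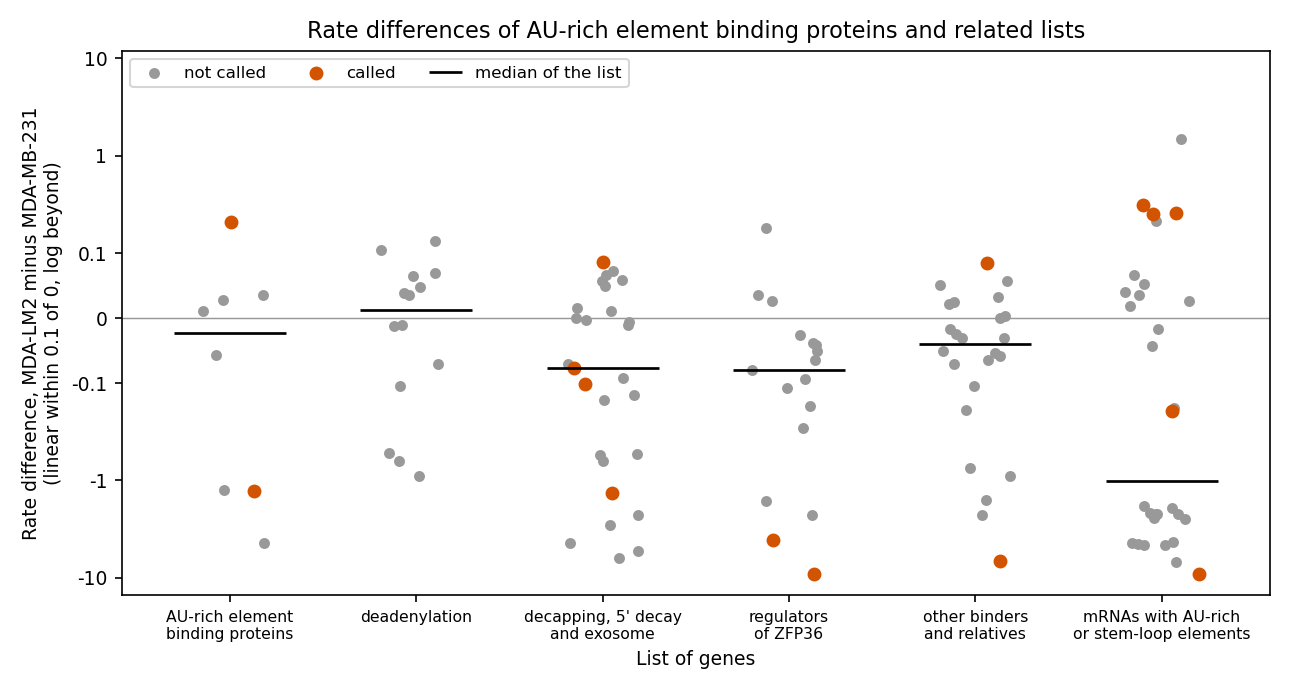
Rate difference, MDA-LM2 minus MDA-MB-231 (axis linear within 0.1 of 0 and logarithmic beyond), of the 8 binding protein genes and of the 5 lists around them; each point is a gene, orange points passed limma's adjusted p of 0.05, and bars are list medians. Points below -1 mark genes with rates in the upper bands of MDA-MB-231.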

How the data were processed

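Labelled RNA of 2 lines was sequenced in 32 libraries (4 per line and time point). The deposited values are decay rates per RefSeq transcript and series, in the authors' own unit (a score without stated scaling), and a differential score per transcript; per the submitters' processing notes TopHat, Cufflinks and hg18 were used, with no versions or roles. The score matched, within 0.001, 1 minus a two-sided unequal-variance p, signed positive where the mean rate of MDA-LM2 was the lower one. No source used here states the log base or how zeros were handled.

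Symbols came from a RefSeq table of GRCh38.p14 (12644 of 12966 transcripts) and GENCODE 29 (118); 204 unnamed transcripts entered only the transcript fit. A gene's rate is the median over its transcripts. limma 3.58.1 (R 4.3.3, variance trend, two-sided, no block, Benjamini-Hochberg) compared the lines. In simulated data it called 20% of genes changed by 0.1 and 64% of those changed by 0.3, so small differences are often missed. The simulated series were independent and held only genes within 1 of 0. The real series are correlated and hold higher rates, so recovery in them is not known. The alternatives covered variance modelling, correlation, scaling, transcript summary and leaving out each series. UTRs, exons and sequences came from GENCODE 29 on GRCh38. The members and lists were chosen with earlier results of these data known. Named list genes are the 2 called in each direction with the smallest p, and the fastest and slowest by the mean over 8 series with all rates within 1 of 0; likeness to ELAVL1, TIA1 and TIAL1 is Euclidean distance over the 8 series (3 genes each). Statistics used Python 3.11.15, scipy 1.17.1 and pandas 2.3.3. Some listed genes are not reported here and were left out of the list counts and the nearest genes.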

Additional observations from a re-analysis of the deposited data

Results flagged for a closer look

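In 73 groups of 4 series (members, their transcripts and the named list genes in each line), 4 had a single series set apart from the other 3 by a gap above Dixon's 95% limit; chance alone gives about 1 in 20. TIA1's transcript NM_022173 had a rate of 2.24 in series 3 of MDA-LM2, with the others between -0.00499 and 0.115. TIAL1's transcript NM_003252 had 0.0879 in series 1 of MDA-LM2, with the others between 0.174 and 0.19. ZFP36L1's transcript NM_001244698, with rates only in MDA-MB-231, had 0.43 in series 4, with the others between 9.31 and 9.38. AKT1 had 4.3 in series 2 of MDA-MB-231, with the others between 4.81 and 4.86.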

How the results depend on the processing

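TIAL1 was called slower under all alternatives that held it, through NM_001033925 and not NM_003252; it is absent where only genes with all rates within 1 of 0 enter, which left 0 slower members. The count of faster members (1, ZFP36L1) was 0 with robust shrinkage and with correlated series (correlation 0.457), and 0 to 1 when a series was left out. All other members stayed uncalled. List genes called slower (8) fell to 3 with correlated series and ranged from 3 to 11 with a series left out; those called faster (5) numbered 3 with robust shrinkage, 1 with correlated series, 9 with centred series, 14 by percentile and 2 to 6 with a series left out. All genes called slower (717) numbered 339 with correlated series and 401 to 993 with a series left out. All genes called faster (210) numbered 34, then 424 centred, 812 by percentile, 135 by the deposited score and 83 to 273.

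With a replicate block, 246 genes were called slower and 31 faster; 4 list genes were slower, 0 list genes and 0 members faster (ZFP36L1 limma adjusted p = 0.0996). Deviations of same-numbered series correlated at -0.0216 to 0.00649 between lines, and 1 of 4 MDA-LM2 series matched its own number best. Whether same-numbered series of both lines were handled together is not stated, and these correlations cannot decide it.

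The class difference was 15.9 percentile points in MDA-LM2 and -24.5 in the parental line; with members in range only, 0.213 and 0.035, the latter reversed. Leaving out a series gave 0.105 to 0.126 and -1.02 to -0.563. Signs turned for ZFP36L2 by percentile (9.67 points) and for HNRNPD by percentile (-4.75 points), in NM_002138 (-0.026) and NM_031370 (-0.12), and without MDA-LM2 series 3 (-0.01) or MDA-MB-231 series 1 (-0.34) or 4 (-0.12). They also turned in single transcripts of TIA1 (NM_022173, 0.51), LSM4 (NM_012321, 0.052) and MCL1 (NM_021960, 0.35; by percentile 6.8 points). With a series left out, values ran from -0.34 to 0.47 for HNRNPD, -0.022 to 0.11 for DUSP1, -0.047 to 0.48 for MAP3K7 and -0.077 to 0.0079 for HIF1A; YBX1 read 0.00058 once centred. By percentile CNOT3, DCP1A and DUSP1 were called faster (20.3, 19 and 14.1 points). None of them was called by rate, and percentiles also depend on the upper bands, more common in MDA-MB-231. The causes were not tested. Depth is unknown, so its part in the precision of a rate cannot be given.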
